A study of Mus musculus with 8 samples.

Results

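The AP-1 genes described here encode 10 transcription factors, namely the Fos family members Fos, Fosb, Fosl1 and Fosl2, the Jun family members Jun, Junb and Jund, the BATF factor Batf and the small Maf factors Maff and Mafk. They were selected by gene symbol, as 10 of the 24421 genes in the count table. The list was proposed with results of the same libraries known. The adjusted p-values below, taken from a model of all genes tested, therefore describe each gene, and the number of members that passed supports nothing by itself. RNA was sequenced from neutrophils of the bone marrow of C57BL/6 mice aged 8 weeks. WT neutrophils and Padi4 KO neutrophils, which come from mice with a deletion of Padi4 exon 1, were each analysed without stimulation and after R848 at 1 µg/ml for 6 h. R848 is a small agonist of the receptor TLR7, and PAD4, the product of Padi4, converts arginine residues of histones and other proteins to citrulline. Each of these 4 groups had 2 libraries. The study used female mice and enriched the cells magnetically, and it states only that samples were run in duplicate. The p-values may thus measure only technical spread. The sample titles give 0 h for the unstimulated cells while the stated protocol gives 6 h. If the titles hold, the effect of R848 and that of 6 h in culture cannot be told apart.

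AP-1 is a dimer of basic leucine zipper proteins. Fos proteins need a Jun partner to bind DNA, whereas Jun proteins can also pair with each other. Fos, Fosb, Jun and Junb are immediate early genes, which many stimuli switch on within minutes and which fall back as their short-lived transcripts decay. In myeloid cells AP-1 acts with NF-kB at the promoters and enhancers of cytokine genes. Batf lacks a transactivation domain and pairs with Jun proteins. The small Maf proteins also lack one, and work mainly as partners of the CNC factors, such as NRF2, and of BACH1. The data are RNA levels at 1 time point, and in bulk RNA fewer cells expressing a gene and less RNA per cell cannot be told apart.

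Fos, Fosb and Jun were the 3 members that fell after R848 in Padi4 KO neutrophils, where 8.84% of all genes tested fell, so the 250 bases before their start sites are shown. The sequences are those of RefSeq on GRCm38.p6 (the mm10 build), read 5′ to 3′ on the strand of the gene. Capitals mark matches to TGACG, the core of the cAMP response element, and to TGACATCA, a variant of that element through which Jun is known to be induced by Jun and ATF2 dimers.
Fos, chr12:85473640-85473889, plus strand: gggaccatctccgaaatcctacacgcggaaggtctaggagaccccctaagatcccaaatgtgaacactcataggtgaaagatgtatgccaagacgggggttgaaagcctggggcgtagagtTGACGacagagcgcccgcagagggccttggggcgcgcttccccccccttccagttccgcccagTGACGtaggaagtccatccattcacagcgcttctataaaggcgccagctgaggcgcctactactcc
Fosb, chr7:19310046-19310295, minus strand: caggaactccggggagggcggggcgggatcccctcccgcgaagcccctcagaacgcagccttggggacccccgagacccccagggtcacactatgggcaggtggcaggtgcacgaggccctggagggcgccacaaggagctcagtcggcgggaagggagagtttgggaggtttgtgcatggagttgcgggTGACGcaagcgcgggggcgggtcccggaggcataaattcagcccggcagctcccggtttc
Jun, chr4:95052223-95052472, minus strand: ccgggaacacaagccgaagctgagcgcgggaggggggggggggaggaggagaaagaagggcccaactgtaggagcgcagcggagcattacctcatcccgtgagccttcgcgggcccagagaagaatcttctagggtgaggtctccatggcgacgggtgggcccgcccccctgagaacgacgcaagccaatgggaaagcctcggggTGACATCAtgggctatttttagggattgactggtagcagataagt

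The window of Fos held TGACG at 129 to 125 and at 66 to 62 bases before the start, that of Fosb held it at 60 to 56 bases, and that of Jun held TGACATCA at 45 to 38 bases. Both strands were searched. TGACG, which also lies inside TGACGTCA, was found in 17.8% of 32851 mouse promoter windows of the same length, and TGACATCA was found in 2.93%. Entries were matched for 9 of the 10 members, with 11 windows in all. TGACG also stood in windows of Junb, Batf, Maff and Mafk, TGACATCA also stood at 45 to 38 bases in 1 of the 3 windows of Maff, and windows of Fosl2 and Jund held no match to any of the motifs searched. The Jund window (chr8:70697489-70697738) ends well before the GENCODE start given below. That of Fosl2 (chr5:32136222-32136471) lies inside the GENCODE span of the gene. The lack of a match in them does not describe the bases before those GENCODE starts. TGANTCA, the element that Fos and Jun dimers bind, was in 6.75% of all windows and the CArG box, the site of SRF, was in 1.47%, and neither was in a window of the members. Only the 250 bases before each start were searched, so sites further out would be missed. TGACGTCA, the whole cAMP response element, was in 1.55% and in 1 of the 3 windows of Maff. The matches describe these windows and were not tested as binding sites. In the GENCODE annotation of the same build, Fos spans chr12:85473890-85477273 and Batf lies further along the same strand of that chromosome at chr12:85686669-85709087. Fosb (chr7:19302696-19310051) and Jun (chr4:95049034-95052222) are on the minus strand, and Jun, Junb (chr8:84974484-84978718) and Jund (chr8:70698949-70700616) each consist of 1 exon. Fosl1 lies at chr19:5447547-5455946, Fosl2 at chr5:32135801-32157842, Mafk at chr5:139791513-139802653 and Maff at chr15:79346621-79359076.

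All 8 libraries were shallow, with 562446 to 1177972 counts on genes. After R848 the Padi4 KO libraries held 1177972 and 1134163 counts and the WT libraries 610117 and 668857. Raw counts below are therefore not on the same scale in these groups. A count of 3 in a library, taken as the floor, corresponded to 2.55 to 5.33 CPM (reads counted for each 1e6 in all) of the library total, and such floors cover counting error only. Levels are given below as CPM scaled by TMM factors, which centre the libraries on the bulk of their genes. The deleted gene, Padi4, was counted 590 and 527 times in the unstimulated WT libraries against 40 and 54 times in those of Padi4 KO, and 166 and 234 against 34 and 21 times once R848 was given. These counts run over the whole gene and do not test exon 1 by itself. All 14 neutrophil markers analysed were detected in every group, and their sum was 154341 to 169840 CPM of the library total in the WT libraries and 125464 to 135322 in the Padi4 KO libraries. Of the 14, 13 were called lower in Padi4 KO than in WT without stimulation (median log2 fold change -0.60). After R848, 12 were called lower (median -0.62), and none was called higher in either comparison. The sum of 12 erythroid markers was 20.9 to 98.3 CPM of the library total in WT and 835 to 1103 in Padi4 KO, with Hbb-bs, Hbb-bt, Hba-a1 and Hba-a2 listed at 0 in all groups. The part of these other cells in the genotype differences below was not tested.

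Fos, the partner of Jun in the classical AP-1 dimer, had the largest range in CPM among the members. Without stimulation, WT libraries gave 499 and 471 counts (792 ± 29.5 CPM, SD, n = 2), and Padi4 KO libraries 1331 and 1948 counts (1459 ± 64.5 CPM, SD, n = 2). With R848 the counts were 73 and 80 for WT (145 ± 5.05 CPM, SD, n = 2) against 18 and 16 for Padi4 KO (15.3 ± 0.910 CPM, SD, n = 2). Each group thus lay apart from the other groups, with Padi4 KO the highest of all before stimulation and the lowest of all after it. Fos fell with R848 by 2.45 ± 0.12 (SE) on the log2 scale in WT (adjusted p = 1.86e-88) and fell by 6.55 ± 0.14 in Padi4 KO, with an adjusted p below the smallest number the software holds. The difference of the responses, Padi4 KO minus WT, was -4.11 ± 0.24 (adjusted p = 6.47e-62). Padi4 KO neutrophils held more Fos RNA than WT when unstimulated (log2 fold change 0.88 ± 0.080, adjusted p = 3.38e-25) and less after R848 (-3.23 ± 0.23, adjusted p = 1.56e-41).

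**Figure D1:**
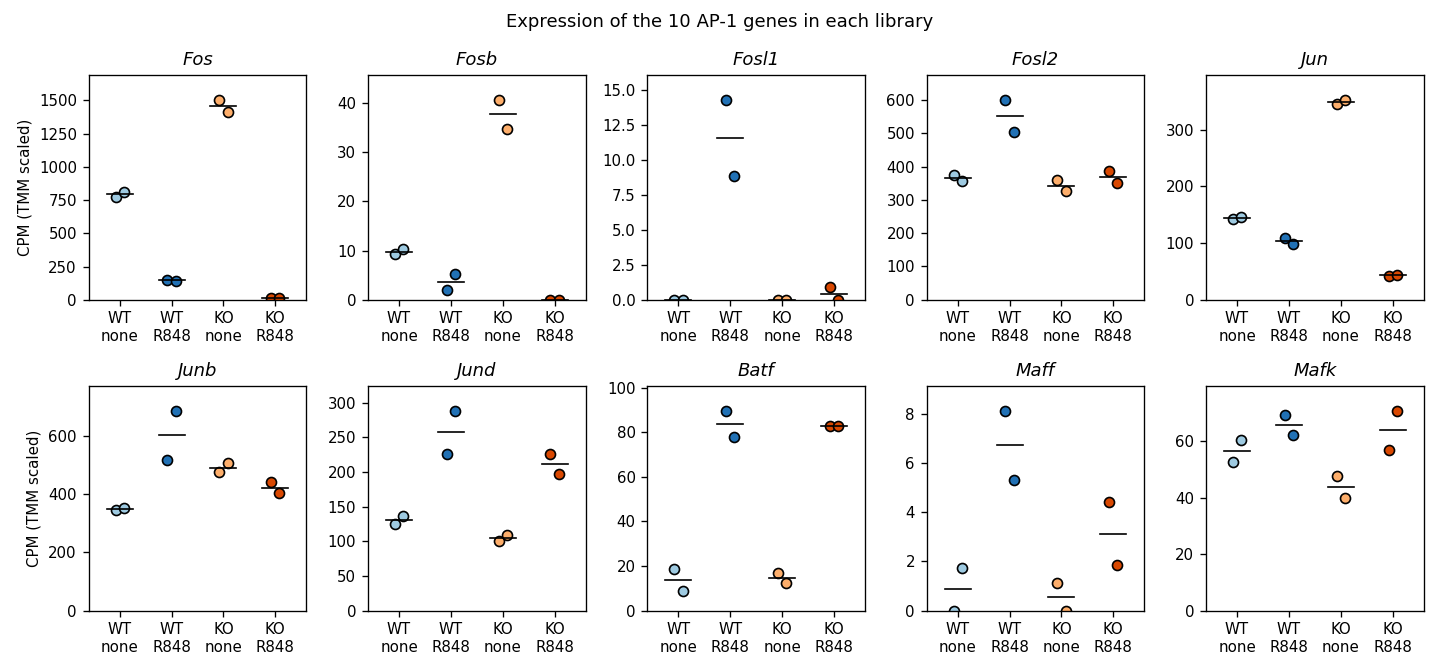
Each panel plots 1 gene, with its level in TMM-scaled CPM on a linear axis from 0 and the 4 groups along the x axis (none, unstimulated). Points are the 2 libraries of a group and lines their mean. Fos, Fosb and Jun are highest in unstimulated Padi4 KO and lowest in Padi4 KO after R848, whereas Batf and Jund are higher after R848 in both genotypes.

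Fosb, which encodes the closest relative of Fos, followed the order of Fos at a far lower level. It had 6 and 6 counts in unstimulated WT, 1 and 3 in WT after R848, 36 and 48 in unstimulated Padi4 KO and 0 and 0 in Padi4 KO after R848. Unstimulated Padi4 KO neutrophils stood well above all other groups (37.8 CPM on average), and both R848 groups were at or below the floor of 3 counts a library. The fall in Padi4 KO passed the test (adjusted p = 3.62e-23) and was at least 13.9-fold when the R848 libraries are set at their floor. The WT values gave a log2 fold change of -1.34 ± 0.78, which did not pass (adjusted p = 0.229) and came to -0.73 without WT R848 replicate 1 and -2.09 without WT R848 replicate 2. Fosb was higher in unstimulated Padi4 KO than in WT (log2 fold change 1.91 ± 0.40, adjusted p = 2.77e-05). Its difference of the responses passed (adjusted p = 0.00588), but not without WT R848 replicate 2 (adjusted p = 0.230). The genotype comparison after R848 also passed for Fosb (adjusted p = 0.0287), although no fold can be given at these counts, and it did not pass without WT R848 replicate 2 (adjusted p = 0.281) or without Padi4 KO R848 replicate 1 (0.113) or 2 (0.107).

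Fosl1, which encodes Fra-1, was detected almost exclusively in stimulated WT neutrophils. It had 7 and 5 counts in WT after R848, 1 and 0 counts in Padi4 KO after R848 and no count in the 4 unstimulated libraries. Fosl1 passed the filter on low counts only through WT after R848, the group where it was high, so its values are given as a description without the tests. In WT the level after R848 was at least 2.35-fold over the floor. After R848 there were 12 counts in all in WT against 1 in Padi4 KO. Of the exon length of Fosl1, 62.4% is shared with Ccdc85b on the other strand, and no strand setting of the counting was stated, so these few counts are uncertain. Ccdc85b itself had between 1 and 6 counts a library.

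Fosl2, which encodes Fra-2, moved least of the Fos family. It had 242 and 206 counts in unstimulated WT (365 ± 13.1 CPM, SD, n = 2), 295 and 285 in WT after R848 (553 ± 68.3), 318 and 450 in unstimulated Padi4 KO (343 ± 23.3) and 435 and 381 in Padi4 KO after R848 (368 ± 25.7). The WT R848 libraries were the highest, and the other 3 groups overlapped. The WT response was 0.59 ± 0.11 on the log2 scale (adjusted p = 4.50e-07), short of the 2-fold change required of a response, and that in Padi4 KO was 0.11 ± 0.095 (adjusted p = 0.417) and of the opposite sign with library size as the only scaling. After R848, less Fosl2 was found in Padi4 KO (-0.58 ± 0.099, adjusted p = 1.99e-07). Padi4 KO and WT responses differed by -0.48 ± 0.14 (adjusted p = 0.0326), and it did not pass without WT unstimulated replicate 2 (adjusted p = 0.145) or without Padi4 KO unstimulated replicate 1 (adjusted p = 0.168). It was larger without WT R848 replicate 2 (-0.83) or Padi4 KO R848 replicate 1 (-0.79).

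The make-up of the Fos family RNA pool shifted from Fos to Fosl2 with R848. Per kilobase of exon, the summed level of the 4 genes went from 434 ± 12.2 to 161 ± 14.3 CPM per kb in WT (SD, n = 2) and from 755 ± 35.3 to 63.9 ± 4.70 CPM per kb in Padi4 KO. Fos made up 86.5% of the sum in unstimulated WT and 91.7% in unstimulated Padi4 KO, and 43.0% and 11.4% after R848. Fosl2 made up 12.9% and 6.95% before R848, and 52.6% and 88.2% after it. In Padi4 KO after R848, the remaining Fos family RNA was therefore mostly Fosl2, at a level per kb of 56.3 ± 3.93 that had been 52.5 ± 3.57 before.

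**Figure D2:**
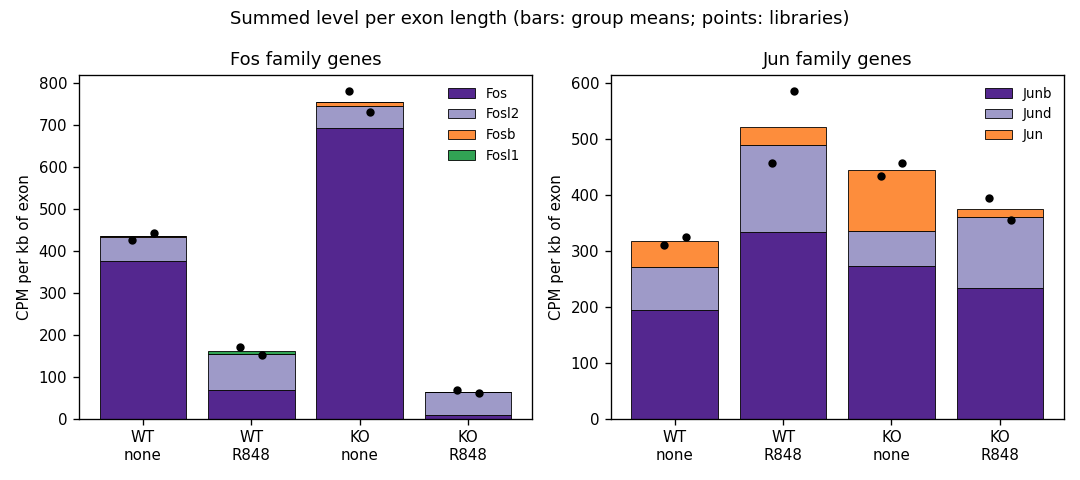
Stacked bars give the mean level of each gene in CPM per kb of exon in the 4 groups (left, Fos family; right, Jun family), and points give the family sum in each of the 2 libraries. The Fos family sum is lower after R848 in both genotypes, whereas the mean Jun family sum is higher after R848 in WT and lower after R848 in Padi4 KO, with Junb the largest part in every group.

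Jun, the founding member of its family, resembled Fos in direction and was less extreme. Its counts were 92 and 85 in unstimulated WT (144 ± 3.20 CPM, SD, n = 2), 53 and 56 in WT after R848 (104 ± 6.27), 306 and 486 in unstimulated Padi4 KO (349 ± 4.74) and 48 and 48 in Padi4 KO after R848 (43.4 ± 1.04). The groups did not overlap. Jun fell by 3.01 ± 0.14 on the log2 scale in Padi4 KO (adjusted p = 5.59e-100), and the WT change of -0.48 ± 0.18 (adjusted p = 0.0342) was smaller than 2-fold and did not pass without any one of the 4 R848 libraries (-0.32, adjusted p = 0.396, without WT R848 replicate 2). Padi4 KO minus WT, the responses differed by -2.52 ± 0.25 (adjusted p = 4.07e-21). Jun was higher in Padi4 KO than in WT before stimulation (1.28 ± 0.13, adjusted p = 2.09e-21) and lower after R848 (-1.25 ± 0.21, adjusted p = 8.38e-08).

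Junb, the Jun protein known as the weaker transactivator of the pair Jun and Junb, showed opposite signs in the genotypes. It had 223 and 205 counts in unstimulated WT (349 ± 6.49 CPM, SD, n = 2), 255 and 389 in WT after R848 (604 ± 120), 423 and 698 in unstimulated Padi4 KO (492 ± 20.0) and 499 and 439 in Padi4 KO after R848 (423 ± 28.2). The WT groups lay apart, but the stimulated WT libraries were far from each other. The log2 fold change with R848 was 0.80 ± 0.11 in WT (adjusted p = 1.06e-12) and -0.22 ± 0.088 in Padi4 KO (adjusted p = 0.0427), both under 2-fold. Without WT R848 replicate 1 the WT value was 1.12 and past 2-fold. The Padi4 KO value was -0.43 without Padi4 KO R848 replicate 1, and -0.36 and -0.35 without WT R848 replicate 1 and 2. The responses differed by -1.02 ± 0.14 (adjusted p = 1.28e-10). Like Fos and Jun, Junb was higher in Padi4 KO without stimulation (0.50 ± 0.10, adjusted p = 1.22e-05) and lower in Padi4 KO after R848 (-0.52 ± 0.095, adjusted p = 1.60e-06), where the value was -0.84 without WT R848 replicate 1.

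Jund, the Jun family member that is usually expressed at a steady level, was higher after R848 by about the same amount in both genotypes. It had 81 and 79 counts in unstimulated WT (131 ± 7.90 CPM, SD, n = 2), 111 and 163 in WT after R848 (257 ± 44.1), 89 and 150 in unstimulated Padi4 KO (105 ± 5.81) and 254 and 214 in Padi4 KO after R848 (211 ± 20.5). Stimulated and unstimulated libraries did not overlap. The log2 fold change was 0.99 ± 0.15 in WT (adjusted p = 1.11e-09) and 1.00 ± 0.13 in Padi4 KO (adjusted p = 4.40e-14), on either side of the 2-fold limit. Only the second counts as a rise under that limit, and which genotype passed depended on the scaling, the filter and the libraries used. Between the genotypes the response differed by 0.013 ± 0.20 (adjusted p = 1.00) and changed sign with the scaling. In the GENCODE annotation 52.6% of the exon length of Jund is shared with the antisense gene Gm11175, so its counts are uncertain if strand was ignored. The gene bodies of Jun and Junb overlap Junos and Prdx2 without any shared exon base, whereas Fos, Fosb, Fosl2, Batf and Maff overlap no other annotated gene.

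Across the Jun family, the summed level per kb was 317 ± 9.33 in unstimulated WT and 521 ± 90.5 in WT after R848, against 445 ± 16.0 and 374 ± 27.5 in Padi4 KO (CPM per kb, SD, n = 2). Junb held 61.0% to 64.0% of the sum in every group. The share of Jun went from 14.3% to 6.37% with R848 in WT and from 24.7% to 3.65% in Padi4 KO, while that of Jund went from 24.7% to 29.6% and from 14.1% to 33.8%. With both families ordered by level per kb, Fos was the first of the 10 members in both unstimulated groups, the fifth in WT after R848 and the seventh in Padi4 KO after R848. Junb came first and Jund second in both R848 groups. Neighbours in the order whose libraries overlapped were Mafk and Batf in both unstimulated groups, Batf and Fosl2 in WT after R848, and Fosl1 with its neighbour, Maff or Fosb, at the low end of the 3 other groups.

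Batf, which in lymphocytes and dendritic cells directs differentiation together with IRF factors, rose with R848 to the same level in both genotypes. It had 12 and 5 counts in unstimulated WT (13.6 ± 7.01 CPM, SD, n = 2), 44 and 44 in WT after R848 (83.8 ± 8.32), 15 and 17 in unstimulated Padi4 KO (14.6 ± 3.27) and 93 and 90 in Padi4 KO after R848 (82.7 ± 0.0639). Every stimulated library was above every unstimulated one. The rise was 2.58 ± 0.33 on the log2 scale in WT (adjusted p = 9.02e-14) and 2.53 ± 0.24 in Padi4 KO (adjusted p = 7.60e-25). No difference of the responses was detected (-0.042 ± 0.47, adjusted p = 1.00), and the error leaves room for one of nearly 2-fold in either direction. The summed level of 11 monocyte and macrophage markers was also higher after R848, going from 1564 ± 97.1 to 4229 ± 26.2 TMM-scaled CPM (SD, n = 2) in WT, and in Padi4 KO from 1852 ± 22.0 to 3868 ± 81.7, with Mrc1 the one marker at 0 after R848. In CPM of the library total the sums were 1594, 3486, 2301 and 3703 in the same order of groups, so which genotype stood higher after R848 depended on the scale. The sum hides opposite moves, since in each genotype 3 of the 11 rose, 3 fell and 5 were not called, with a median log2 fold change of 0.56 in WT and 0.023 in Padi4 KO. The part of such cells in the values of Batf and Jund was not tested.

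The small Maf genes showed little. Maff had 0 and 1 counts in unstimulated WT, 4 and 3 in WT after R848, 1 and 0 in unstimulated Padi4 KO and 5 and 2 in Padi4 KO after R848. The ratio of the summed counts, scaled for depth, was 8.13 in WT (95% counting interval 1.04 to 366) and 7.15 in Padi4 KO (0.919 to 322), and neither response passed (adjusted p = 0.111 and 0.130), although that in Padi4 KO did without Padi4 KO unstimulated replicate 1 (adjusted p = 0.0892). Mafk had 34 and 35 counts in unstimulated WT (56.5 ± 5.56 CPM, SD, n = 2), 34 and 35 in WT after R848 (65.6 ± 5.18), 42 and 55 in unstimulated Padi4 KO (43.7 ± 5.36) and 64 and 77 in Padi4 KO after R848 (63.8 ± 9.83). Its log2 fold change with R848 was 0.22 ± 0.25 in WT (adjusted p = 0.575), with the opposite sign under library size alone, and 0.57 ± 0.20 in Padi4 KO (adjusted p = 0.0148), less than 2-fold, and 0.28 without Padi4 KO R848 replicate 2 (adjusted p = 0.476). The difference was 0.35 ± 0.32 (adjusted p = 0.718).

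**Figure D3:**
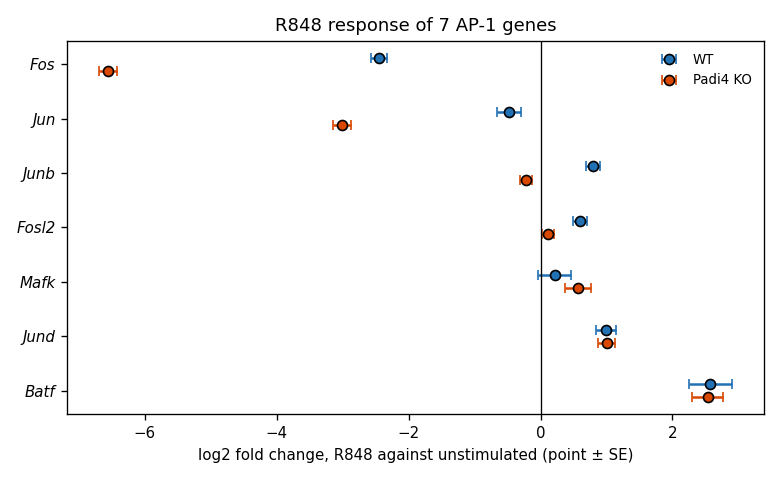
Points give the log2 fold change of R848 against unstimulated cells for 7 members, with WT in blue and Padi4 KO in orange, and bars give the SE. Fos and Jun lie further to the left in Padi4 KO than in WT, Junb has opposite signs, and Jund and Batf nearly coincide. Fosb, Fosl1 and Maff are left out because whole groups were at or near 0.

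Counted over the members, all 10 passed the filter on low counts, Fosl1 only through WT after R848. Fosl1 is therefore left out of the counts of calls in this paragraph and the next. In WT the response was called in Batf and Fos. Batf rose, against 7.17% of all genes tested that rose, and Fos fell, against 10.8% that fell. In Padi4 KO it was called in 5 members. Batf and Jund rose, where 8.07% of all genes rose, and Fos, Fosb and Jun fell, where 8.84% fell. The difference of the responses was called in 5 members, Fos, Fosb, Fosl2, Jun and Junb, each with the more negative response in Padi4 KO, against 1.26% of all genes called in that direction and 3.45% in the other. That balance of all genes turned with the fit. Calls were 73.3% higher with TMM factors, 28.0% with DESeq2 and 40.7% with relative log expression factors. The median of that difference over the 8 members with 10 or more counts on average was -0.75, with Fosb fitted or set at its floor, and it was 0.18 over all genes with such counts. Other scalings moved this median of all genes to between 0.023 and 0.11, so a difference near 0, such as that of Jund, depends on the scaling, and those of Fos, Jun and Junb are several times larger than this shift.

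Between the genotypes, 4 members, Fos, Fosb, Jun and Junb, were higher in unstimulated Padi4 KO than in WT, where 9.55% of all genes tested were called higher and 14.4% lower. After R848, 5 members, Fos, Fosb, Fosl2, Jun and Junb, were lower in Padi4 KO, where 7.81% of all genes were called lower and 9.46% higher. Fosl1 is not counted. Fos, Fosb, Jun and Junb stand in both lists with opposite signs, Fosb after R848 only on counts at or below the floor. These comparisons share libraries with the responses above, so they restate the same values from another side. None of the remaining values passed, those of Fosl1 left aside. Jund gave -0.31 ± 0.16 before R848 (adjusted p = 0.175, and -0.37 to -0.16 with 1 library left out) and -0.29 ± 0.12 after it (adjusted p = 0.105), and it did pass after R848 without WT R848 replicate 1 (-0.59, adjusted p = 0.000869) or Padi4 KO R848 replicate 1 (-0.51, adjusted p = 0.0128). Fosl2 gave -0.10 ± 0.10 before R848, with the opposite sign under library size alone and without any one of the R848 libraries. Mafk gave -0.39 ± 0.23 before R848 (adjusted p = 0.268, and -0.49 to -0.24 with 1 library left out) and -0.037 ± 0.22 after it, and Batf gave 0.030 ± 0.43 and -0.013 ± 0.19. Maff gave -1.03 ± 0.87 after R848 (adjusted p = 0.529) on a total of 7 counts in each genotype, and between -1.87 without Padi4 KO R848 replicate 1 and -0.66 without replicate 2. No fold is given for Maff or Fosl1 in unstimulated cells. Of 11 markers of monocytes and macrophages, 6 were called higher and 1 lower in unstimulated Padi4 KO. After R848, 5 were called higher and 1 lower in Padi4 KO, where Fos, Jun and Junb were lower. The part of monocytes and macrophages in the values of Fos, Fosb, Jun and Junb was not tested.

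**Figure D4:**
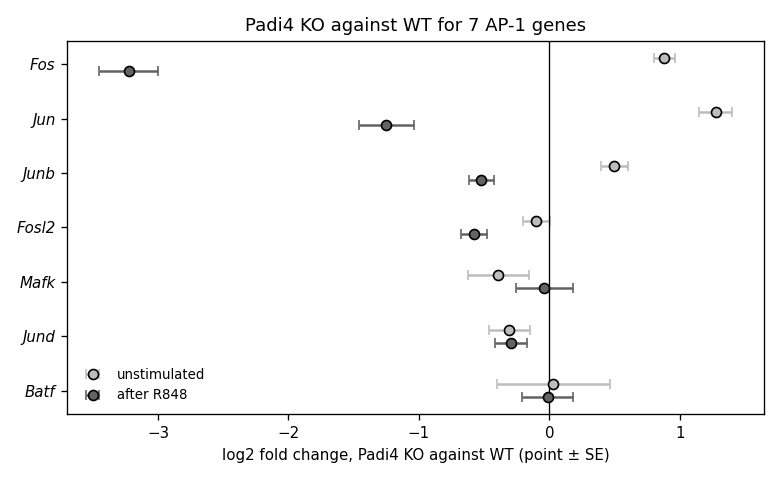
Points give the log2 fold change of Padi4 KO against WT for 7 members, in unstimulated cells (light grey) and after R848 (dark grey), with the SE as bars. Fos, Jun and Junb lie to the right of 0 in unstimulated cells and to its left after R848, whereas Batf stays at 0 and Fosl2 departs from 0 after R848.

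The summed level of markers of bone marrow stroma and endothelium was, like Fos and Fosb, highest in unstimulated Padi4 KO. The sum of 16 such genes in CPM of library totals was 260 ± 20.7 for unstimulated WT (SD, n = 2), 46.3 ± 4.11 in WT after R848, 720 ± 112 in unstimulated Padi4 KO and 59.7 ± 0.848 in Padi4 KO after R848. Kitl, Adipoq and Emcn were listed at 0 in all groups, and 9 of the 16, Cxcl12, Lepr and Cdh5 among them, were at 0 in both R848 groups. Of the 9 that were tested, 3 were called higher in unstimulated Padi4 KO, and with R848 4 fell in WT, while 4 fell and 1 rose in Padi4 KO. Unlike Fos and Jun, this sum was no lower with Padi4 KO after R848. The part of such cells in the values of Fos, Fosb, Jun and Junb was not tested.

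Related genes were examined as lists that had been written down with earlier results of these libraries known, and some of the genes with the largest called changes in each are given. The shares of all genes tested that were called, given above for each comparison, hold for these counts too. Of the other AP-1 and Maf genes, 9 were tested. Atf3, Maf and Mafg rose with R848 in both genotypes and no other gene of this list passed. Atf3, a stress-induced factor that often represses, had 0 and 1 counts in unstimulated WT and 22 and 23 after R848 (adjusted p = 9.49e-13), and 5 and 4 against 31 and 19 in Padi4 KO (log2 fold change 2.46 ± 0.45, adjusted p = 4.89e-07). Maf, a large Maf factor that activates Il10 in macrophages, reached 8 and 9 counts in WT against 44 and 47 in Padi4 KO, and was higher in Padi4 KO after R848 (1.34 ± 0.36, adjusted p = 0.00260), although not with DESeq2 (1.25, adjusted p = 0.262). Mafg and Atf3 were lower there (-0.61 ± 0.12, adjusted p = 3.86e-06, and -0.91 ± 0.31, adjusted p = 0.0312), Atf3 neither with DESeq2 (adjusted p = 0.322) nor with library size alone (0.125) nor without Padi4 KO R848 replicate 2 (0.205). In unstimulated cells none of the 9 was higher and 3 were lower in Padi4 KO, namely Jdp2 (-0.88 ± 0.16, adjusted p = 8.10e-07), Mafg (-0.72 ± 0.16, adjusted p = 0.000122) and Atf7 (-0.64 ± 0.22, adjusted p = 0.0232). Atf7 did not pass with DESeq2 (adjusted p = 0.386) or library size alone (0.316), nor without replicate 2 of either unstimulated group (0.409 in WT and 0.190 in Padi4 KO) or either Padi4 KO R848 library (0.105 and 0.104). Mafg, the third small Maf gene, rose by 1.29 ± 0.14 in WT (adjusted p = 1.10e-18, 0.98 and short of 2-fold with library size alone) and by 1.39 ± 0.13 in Padi4 KO (adjusted p = 2.32e-25). Its level went from 142 ± 8.50 to 347 ± 29.8 CPM in WT and from 87.5 ± 5.75 to 228 ± 25.9 CPM in Padi4 KO (SD, n = 2), so it stood above Mafk and Maff in CPM in each group.

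Of the partners of the small Maf proteins, 5 were tested and 3 rose in both genotypes. Nfe2l1 rose by 2.70 ± 0.15 in WT and 2.56 ± 0.12 in Padi4 KO, Nfe2l2, which encodes NRF2, by 2.40 ± 0.12 and 2.14 ± 0.11, and Bach1, the repressor that competes with NRF2, by 1.36 ± 0.13 and 1.58 ± 0.11 on the log2 scale. After R848, less Nfe2l2 was found in Padi4 KO (-0.47 ± 0.090, adjusted p = 5.64e-06). All 9 antioxidant genes with Maf recognition elements rose in both genotypes (8 in Padi4 KO with library size alone). Srxn1, which encodes sulfiredoxin, went from 1 and 0 to 188 and 148 counts in WT and from 5 and 5 to 176 and 166 counts in Padi4 KO. Slc7a11, the cystine transporter, went from 29.2 ± 4.64 to 1791 ± 419 CPM in WT and from 24.2 ± 0.657 to 888 ± 10.4 CPM in Padi4 KO (SD, n = 2). For 3 of them, Srxn1, Gclm and Gclc, the responses differed, each with the smaller rise in Padi4 KO, whereas DESeq2 called 1. For Gclm, the modifier subunit of glutathione synthesis, the difference was -1.52 ± 0.27 (adjusted p = 5.74e-06), and for Gclc, the catalytic subunit, -2.07 ± 0.56 (adjusted p = 0.0113). Gclc received no adjusted p from DESeq2 and did not pass without WT unstimulated replicate 1 (adjusted p = 0.267). Srxn1 (adjusted p = 0.0607) did not pass with DESeq2 (0.233) or without any one of the 4 unstimulated libraries (adjusted p up to 0.356). Gclm and Gclc were already higher in unstimulated Padi4 KO than in WT, by 1.20 ± 0.25 and 2.87 ± 0.46.

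The kinases and factors upstream of AP-1 moved little at the RNA level, and several calls among them depended on the tool or on single libraries. Of 22 tested, 1 rose and 1 fell in WT, and 3 rose and 1 fell in Padi4 KO. Rps6ka4, which encodes the kinase MSK2, rose by 1.53 ± 0.29 in WT and by 1.10 ± 0.20 in Padi4 KO, but was short of 2-fold in Padi4 KO with library size alone (0.72), without WT R848 replicate 1 (0.96) or 2 (0.97) and without Padi4 KO R848 replicate 1 (0.87). Elk4 and Map2k1 rose in Padi4 KO by 1.20 ± 0.31 and 1.08 ± 0.12, and gave 0.83 and 0.70 with library size alone. Elk4 did not pass with DESeq2, and Map2k1 was just short of 2-fold with relative log expression factors and without any one of the 4 R848 libraries (0.94 to 0.95). Mapk9, which encodes JNK2, fell by 1.22 ± 0.49 in WT (adjusted p = 0.0507) and did not pass with DESeq2 (adjusted p = 0.274), without WT unstimulated replicate 1 (0.221) or without WT R848 replicate 1 (0.137) or 2 (0.366).

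The difference of the responses passed for Rps6ka1 (0.66 ± 0.14, adjusted p = 0.000162) and Mapk3, which encodes ERK1 (0.52 ± 0.15, adjusted p = 0.0240). With DESeq2 neither passed (adjusted p = 0.127 for Rps6ka1 and 0.539 for Mapk3). Rps6ka1 was at 0.32 without WT R848 replicate 1 (adjusted p = 0.321), and it also missed without Padi4 KO R848 replicate 1 (0.109) or 2 (0.277). Mapk3 did not pass with relative log expression factors (adjusted p = 0.249), and it passed only while WT unstimulated replicate 1, Padi4 KO unstimulated replicate 1 and all 4 R848 libraries were kept, falling to 0.19 without WT R848 replicate 1. In unstimulated cells 9 of the 22 were lower in Padi4 KO, where 14.4% of all genes were lower, but DESeq2 called 2 lower, and library size alone called 2 lower and 3 higher. After R848, 4 were lower in Padi4 KO, against 2 with DESeq2 and 1 with library size alone. Creb1 gave -0.74 ± 0.20 (adjusted p = 0.00338) and did not pass without WT R848 replicate 2 (adjusted p = 0.115). Map2k4 and Srf gave -0.54 and -0.49, and neither passed with DESeq2 (adjusted p = 0.113 and 0.198) or with library size alone (0.229 and 0.371). Srf also missed without WT R848 replicate 1 (0.101) or Padi4 KO R848 replicate 1 (0.105). SRF and CREB1 are known to act on the Fos promoter.

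Other immediate early genes did not all move like Fos. Of 16 tested, 9 rose and 2 fell in WT, and 7 rose and 3 fell in Padi4 KO, where 7.17% and 8.07% of all genes tested rose and 10.8% and 8.84% fell. Nr4a1, an orphan nuclear receptor, rose from 12 and 7 to 352 and 453 counts in WT and from 11 and 17 to 329 and 290 counts in Padi4 KO. Egr1, a zinc finger factor, went from 18 and 11 to 86 and 81 counts in WT and from 33 and 42 to 7 and 5 counts in Padi4 KO, and the difference of its responses was -5.32 ± 0.44 (adjusted p = 2.19e-29, with no adjusted p from DESeq2). Dusp1, a phosphatase of p38 and JNK, went from 728 ± 10.7 to 203 ± 6.78 CPM in WT and from 744 ± 13.5 to 120 ± 5.44 CPM in Padi4 KO (SD, n = 2), with a difference of -0.79 ± 0.17 (adjusted p = 0.000301). After R848, 13 of the 16 were lower in Padi4 KO than in WT, against 7.81% of all genes called lower and 9.46% higher. Of the 14 neutrophil markers, 12 were also called lower there.

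Among genes described as targets of AP-1 in myeloid cells, 21 were tested. With R848, 13 rose in WT and 11 in Padi4 KO, and in WT 1 fell. Il10 went from 0 counts in all 4 unstimulated libraries to 115 and 96 in WT and 138 and 109 in Padi4 KO, and Il12b likewise from 0 to 21 and 22 and to 41 and 29. Il1b, which encodes the cytokine IL-1β, went from 54 and 47 to 2790 and 2723 counts in WT and from 253 and 351 to 3551 and 3106 in Padi4 KO, and the difference of its responses was -2.51 ± 0.15 (adjusted p = 4.02e-57). For Il1b as for Fos and Jun, the unstimulated Padi4 KO libraries were above the WT ones (1.70 ± 0.14, adjusted p = 1.04e-31), but the direction of its response was opposite. Over the list, 2 genes, Il1b and Cd14, were higher in unstimulated Padi4 KO and 5 were lower (3 with DESeq2 and 2 with library size alone), with a median of -0.36. Cd14 (1.01 ± 0.35, adjusted p = 0.0403) did not pass without WT unstimulated replicate 1 (0.48, adjusted p = 0.602) or Padi4 KO unstimulated replicate 2 (adjusted p = 0.317). Plau, which encodes the urokinase plasminogen activator, gave -1.22 ± 0.31 there (adjusted p = 0.00110), and did not pass with DESeq2 (adjusted p = 0.215) or without WT unstimulated replicate 1 (0.157) or Padi4 KO unstimulated replicate 2 (0.134). The difference of the responses was also negative for Cd14, the co-receptor for several TLR ligands (-2.07 ± 0.35, adjusted p = 3.88e-06), and for Cxcl2, a neutrophil chemokine (-1.97 ± 0.24, adjusted p = 1.92e-13). It was called in 5 genes of the list with a negative sign and in 1, Mmp9, with a positive sign (0.28 ± 0.089, adjusted p = 0.0523), a call that was lost in DESeq2, under relative log expression factors and under library size alone.

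After R848, 12 of the 21 were lower in Padi4 KO than in WT and the other 9 did not pass, where 7.81% of all genes tested were lower. Ptgs2, which encodes cyclooxygenase-2, was counted 33 and 28 times in WT against 8 and 11 times in Padi4 KO (-2.73 ± 0.35, adjusted p = 1.09e-12). Thbs1, which encodes thrombospondin-1, was counted 1314 and 959 times in WT against 497 and 526 times in Padi4 KO (-2.24 ± 0.19, adjusted p = 4.68e-05). Icam1 and Ccl4, which R848 raised in both genotypes, were not called between the genotypes after R848. The median was -0.70 over the 21 genes and 0.083 over all genes tested. Over the 14 neutrophil markers, with Mmp9 also among them, it was -0.62, and 12 were called lower.

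**Figure D5:**
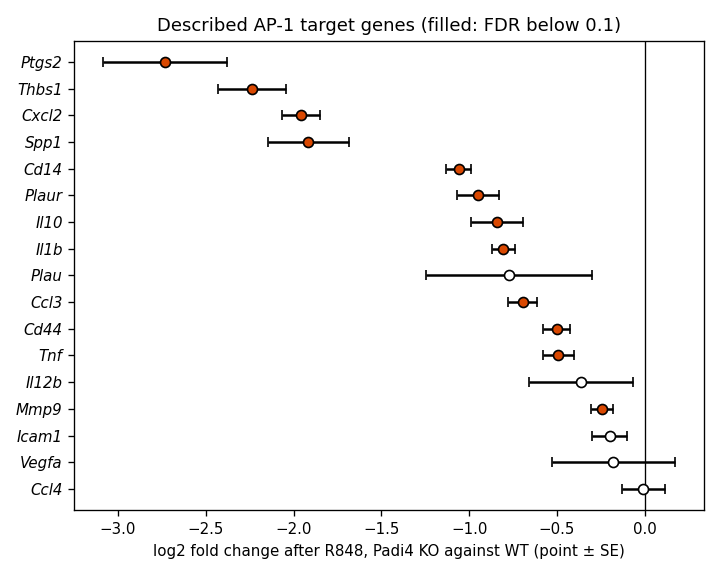
Points give the log2 fold change of Padi4 KO against WT after R848, with the SE as bars, for the 17 described AP-1 target genes with 10 or more counts on average, and filled points passed a false discovery rate of 0.1. The 12 filled points all lie to the left of 0, from Ptgs2 at -2.73 to Mmp9 near 0.

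The genes with the most similar profile were found by the Euclidean distance between centred log2 CPM over the 8 libraries, among 6912 genes with 10 or more counts on average. For Fos they were Klf4 (distance 3.15), Ramp1 (3.28) and Fgl2 (3.29), against a distance of 6.99 between Fos and a flat profile. Klf4, a Krüppel-like factor, had 15 and 12 counts in unstimulated WT, 2 and 2 in WT after R848, 29 and 58 in unstimulated Padi4 KO and 1 and 1 in Padi4 KO after R848. Klf4 and Ramp1 were also near Fosb, together with Jun. For Jun the nearest were Osm (1.14), Ctdspl (1.15) and Slc29a3 (1.41). For Junb they were Bzw1, Mtf1 and Tmem165, for Fosl2 Rnf146, Zcchc2 and Itprip, for Jund Gpatch2l, Hcls1 and Rhog, and for Mafk Tspyl1, Ip6k1 and Cebpg. For Batf the nearest gene was Nfe2l1 (0.662), followed by St3gal6 (0.685) and P2ry2 (0.728), against 3.50 for a flat profile. The 8 points of such a profile share library and group, so the distances describe likeness only.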

How the data were processed

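RNA of 8 libraries was analysed. According to the paper and the submitters' processing notes, the authors checked reads with FastQC 0.11.7, trimmed them with cutadapt 1.16, mapped them to mm10 with STAR 2.5.3a and counted them with HTSeq 0.6.1p1. The deposited values are raw counts per gene symbol, and the strand setting and annotation are not given in the sources used here. The 5 summary rows of HTSeq, which hold 10.6% to 13.0% of the counts of a library, were left out.

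Groups followed the sample labels. Genes with at least 1 count in at least 2 libraries were tested (12254 genes) with edgeR 4.0.16 (R 4.3.3, limma 3.58.1), with TMM factors, 1 mean per group and a robust quasi-likelihood fit that shares the spread across groups. Adjusted p-values are Benjamini-Hochberg values for all genes tested. As in the study, responses had to reach a false discovery rate under 0.1 with more than 2-fold change, and for other comparisons only that rate was required. The SE is the log2 fold change over the root of F. The script was tested on simulated data. The common biological coefficient of variation was 4.68%, and the libraries of a group differed by 1.05 to 1.67 times the counting noise (chi-square per degree of freedom). Levels per kb used the union of exons in the GENCODE M21 basic annotation of GRCm38, and promoter windows came from RefSeq.

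The members and all lists were chosen with earlier results of these data known. Besides the members and Padi4, the text draws on up to 3 called genes of each list and comparison with the largest change and 10 or more counts on average, and for each member with such counts the 3 genes nearest in profile. Cxcl12, Lepr, Cdh5 and the other markers, overlapping genes and Mmp9 were named outside that rule. Alternatives were DESeq2 1.42.0, relative log expression factors, library size alone, a minimum of 1 count in all, the filter of filterByExpr, a replicate block and leaving out each library.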

Additional observations from a re-analysis of the deposited data

Results flagged for a closer look

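The R848 response of 5 members differed between Padi4 KO and WT by the test of the difference itself. The difference, Padi4 KO minus WT on the log2 scale, was -4.11 for Fos, -2.52 for Jun, -1.02 for Junb and -0.48 for Fosl2. For Fosb the test passed (adjusted p = 0.00588), but no size is given, since both R848 groups were at or below the floor of 3 counts a library.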

How the results depend on the processing

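The libraries hold few counts, which limits Fosb, Fosl1 and Maff most, and 2 libraries a group give little hold on the spread. Of the alternatives to the values of single members, 566 kept their direction and side of the threshold, 15 lost a call, 12 gained one, 27 changed sign and 5 had no adjusted p. Of those to counts of genes or members called, 236 stayed within 1.5 times and 44 did not. No value of Fos, Fosb, Jun or Junb changed sign in any of them.

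Counts over all genes were the least stable. DESeq2 called 719 genes lower in the WT response (main 1328), 599 lower in the Padi4 KO response (1083), 35 higher and 90 lower in the difference (423 and 154), 475 and 586 in unstimulated Padi4 KO against WT (1170 and 1763) and 387 and 621 after R848 (1159 and 957). Relative log expression factors gave 160 and 233 in the difference. Library size alone gave 2106 lower in WT, 624 higher and 2072 lower in Padi4 KO, 255 higher in the difference, 1901 and 561 in unstimulated cells and 1870 and 417 after R848. The share of calls that were higher was 73.3% in the difference with TMM factors, 28.0% with DESeq2, 40.7% with relative log expression factors and 60.0% with library size. It was 39.8%, 53.0%, 44.6% and 23.0% in WT, 47.7%, 53.5%, 41.8% and 23.1% in Padi4 KO, 39.9%, 44.8%, 46.6% and 77.2% in unstimulated cells, and 54.8%, 38.4%, 42.1% and 81.8% after R848. Library size moved the median of all genes to -0.38 in WT and -0.30 in Padi4 KO (TMM -0.074 and 0.077), and to 0.12 and 0.21 between genotypes before and after R848 (TMM -0.16 and -0.0019). The cause was not tested.

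Fosl1 is counted among the members called in this section, and with filterByExpr 1 member was called higher in WT, in place of 2. In Padi4 KO, 1 was called higher in place of 2 under DESeq2, relative log expression factors, library size and filterByExpr, since Jund came to 0.92, 0.92, 0.62 and 0.94. Library size alone gave the opposite sign for Mafk in WT (-0.088), Fosl2 in Padi4 KO (-0.27) and in unstimulated cells (0.19), and Batf (0.20) and Mafk (0.18) after R848. For Jund the difference came to -0.13 with DESeq2, -0.14 under relative log expression and -0.061 with library size. DESeq2 gave no adjusted p to Fosb, Fosl1, Batf, Maff and Mafk in the difference, or to Fosl1 and Maff between genotypes.

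Leaving out 1 library at a time, members called higher ranged from 2 to 4 in WT and 1 to 2 in Padi4 KO, genes called in the difference from 51 to 293 higher and 98 to 350 lower, in unstimulated cells from 778 to 1600 higher and 1116 to 1412 lower, and after R848 from 648 to 1180 higher. Values that changed sign ranged from -0.11 to 0.17 for Fosl2 in Padi4 KO, from -0.42 to 0.077 for Jund, -0.72 to 0.37 for Batf and -0.037 to 0.45 for Mafk in the difference, from -0.15 to 0.046 for Fosl2 and -0.39 to 0.70 for Batf in unstimulated cells, and from -0.30 to 0.0027 for Mafk after R848.

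The replicate numbers did not pair the libraries, since deviations of same-numbered libraries correlated at -0.020 to 0.020 between groups. With the number as a replicate block, 862 genes were called higher in WT and 5 members in the difference, and the block changed no call of a member.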

Other observations

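Of 10 genes tested that act in the decay of Fos and Jun transcripts or the turnover of their proteins, a list written with earlier results known, Zfp36l1 rose and Zfp36l2 fell with R848 in both genotypes. Both encode relatives of tristetraprolin, which binds AU-rich elements. Zfp36l1 went from 6 and 6 to 123 and 156 counts in WT and from 18 and 28 to 232 and 207 counts in Padi4 KO, and the difference of its responses was -1.46 ± 0.45 (SE, adjusted p = 0.0395). Zfp36l1 did not pass that test without WT unstimulated replicate 1 (adjusted p = 0.247) or 2 (0.147) or Padi4 KO unstimulated replicate 2 (0.156). Zfp36l2 went from 582 ± 19.2 to 151 ± 26.5 CPM in WT and from 465 ± 16.5 to 156 ± 14.0 CPM in Padi4 KO (SD, n = 2). For Zfp36, the tristetraprolin gene itself, the responses differed by -0.58 ± 0.11 (adjusted p = 9.76e-05), with 433 and 532 counts in WT and 733 and 711 counts in the deeper Padi4 KO libraries after R848.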
